A study of Mus musculus with 20 samples.

Results

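The comparison of bone marrow-derived macrophages (BMDM) cultured in high glucose with BMDM cultured in normal glucose covers 8 of the 20 long RNA libraries of the study and 14425 of the 14456 genes listed for them, namely those whose normalized counts averaged 10 or more over the 8 libraries. The cells were grown from the bone marrow of male C57BL/6J mice with the growth factor M-CSF, which both groups share, after which they spent 24 h either at 25 mM glucose, called high glucose (n = 4), or at 5.5 mM glucose, called normal glucose (n = 4), where 19.5 mM mannitol, a sugar alcohol, made up the difference. Mannitol hardly enters cells, whereas glucose is taken up through transporters. The normal glucose libraries are numbered 1, 3, 5 and 6 and the high glucose libraries 1, 2, 4 and 6. The sources used here do not say that the libraries came from separate animals or cultures. The p-values therefore rest on the spread between these libraries, which may be partly technical. Standard errors and p-values of the gene tests (limma) also draw on the spread of other genes of like level. They do not measure the spread of a single gene alone. A normalized count is the number of reads of a gene divided by a scaling factor of its library, and fold changes are differences of group means of log2(normalized count + 1), high minus normal glucose.

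Glucose that enters a macrophage is phosphorylated and then split by glycolysis, and a side branch, the pentose phosphate pathway, makes the NADPH that antioxidant enzymes and the superoxide-forming NADPH oxidase consume. Macrophages also carry sensors of microbial products and secrete a low level of type I interferon, which keeps a set of antiviral genes expressed. Cells exposed to a change in the osmotic pressure across their membrane adjust by taking up or releasing ions and small organic solutes such as inositol, betaine and taurine.

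Read totals ranged from 35772047 to 48519084 for the normal glucose libraries and from 38889826 to 45548733 for the high glucose libraries. Replicates of a group correlated with a Pearson r of 0.984 to 0.988 across genes on the log2 scale, and no pair was a copy, since the chi-square divided by its degrees of freedom lay between 5.19 and 35.6 for libraries of the same group. In a principal component analysis the first component, with 24.2% of the variance, separated the groups, and on the second, with 15.8%, normal glucose 3 stood at 31.03 while the other libraries lay between -21.2 and 8.58. Of 12 macrophage markers, all 12 had an entry, among them Adgre1 (F4/80) with a mean of 37652 normalized counts, Csf1r with 104637 and Lyz2 with 561780. Of the 12, 5 were called higher (Adgre1, Csf1r, Lyz2, Cd14 and Spi1) and 3 lower (Cd68, Mertk and Mrc1). No marker of T or NK cells, erythroid cells or mast cells was among the listed genes. The 5 listed markers of neutrophils added up to between 254 and 378 normalized counts in normal glucose and between 211 and 258 in high glucose. The 2 B cell markers among the listed genes included Ighm, the heavy chain of immunoglobulin M, with a mean of 2758, and summed to 2878 to 3021 in normal and 2491 to 2879 in high glucose. The 5 listed stromal markers summed to 143 to 234 and 180 to 312, the dendritic cell marker Itgax ran from 123 to 157 and from 102 to 129, the endothelial Kdr from 266 to 318 and from 307 to 445, and the progenitor marker Cd34 from 66.8 to 99.2 and from 42.4 to 97.9. None of these markers, from those of neutrophils to that of progenitors, was called. Not among the listed genes were 4 of 6 B cell, 3 of 8 stromal, 7 of 8 dendritic cell, 3 of 4 endothelial and 3 of 4 progenitor markers. Their part in the results was not tested. In bulk RNA, fewer cells of a type cannot be told apart from less RNA per cell.

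The response was broad and mostly small. A gene was called changed at an adjusted p-value under 0.05 (limma, Benjamini-Hochberg over the 14425 genes), which 1914 genes (13.3%) reached. Of them 1116 (7.74%) were higher in high glucose and 798 (5.53%) were lower. Called genes had a median absolute log2 fold change of 0.26, a change of 19.8%, against 0.12 for all genes tested. It was 0.23 for the called higher genes and 0.31 for the called lower genes. A change of under 0.25 on the log2 scale was found for 895 of the called genes, which is 46.8% of them, one of 0.25 to 0.5 for 665, one of 0.5 to 1 for 273, one of 1 to 2 for 75 and one of over 2 for 6. Pooled over expression levels, the called genes below 0.25 comprised 604 higher and 291 lower, and those between 0.5 and 1 comprised 116 higher and 157 lower. This turn was not seen within a level. From 1000 to 10000 normalized counts the calls were 471 and 245 below 0.25 and 39 and 8 between 0.5 and 1. Above 10000 they were 125 and 34, and 6 and 1. From 100 to 1000 they were 8 and 12, and 64 and 120. From 10 to 100 those between 0.5 and 1 were 7 and 28. All libraries of one group lay above all libraries of the other for 1570 of the called genes (10.9% of those tested) and for 2349 genes in all (16.3%), of which 1324 (9.18%) were higher and 1025 (7.11%) lower. A change of at least 0.5 on the log2 scale was called for 354 genes (2.45%). Without normal glucose 3 the count was 1673 (1001 higher and 672 lower). With quantile normalization, which forces the same distribution on each library, 789 genes were higher and 872 lower, so that the called higher genes made up 47.5% of the calls in place of 58.3%.

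Both the number and the direction of the calls varied with expression level. Among the 3781 genes with a mean of 10 to 100 normalized counts, 21 were called higher and 76 lower (2.57% called). From 100 to 1000 normalized counts, 202 of 5140 genes were called higher and 327 lower (10.3%). From 1000 to 10000 the balance was the other way, with 719 of 4983 genes called higher and 354 lower (21.5%). Above 10000 normalized counts, 174 of 521 genes were called higher and 41 lower (41.3%). These 521 genes held 56.8% of all normalized counts. The smallest change that was called fell from 0.67 on the log2 scale in the lowest level class to 0.21, 0.11 and 0.09 in the classes above it, beside a median standard error of 0.371, 0.113, 0.0528 and 0.0353.

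**Figure D1:**
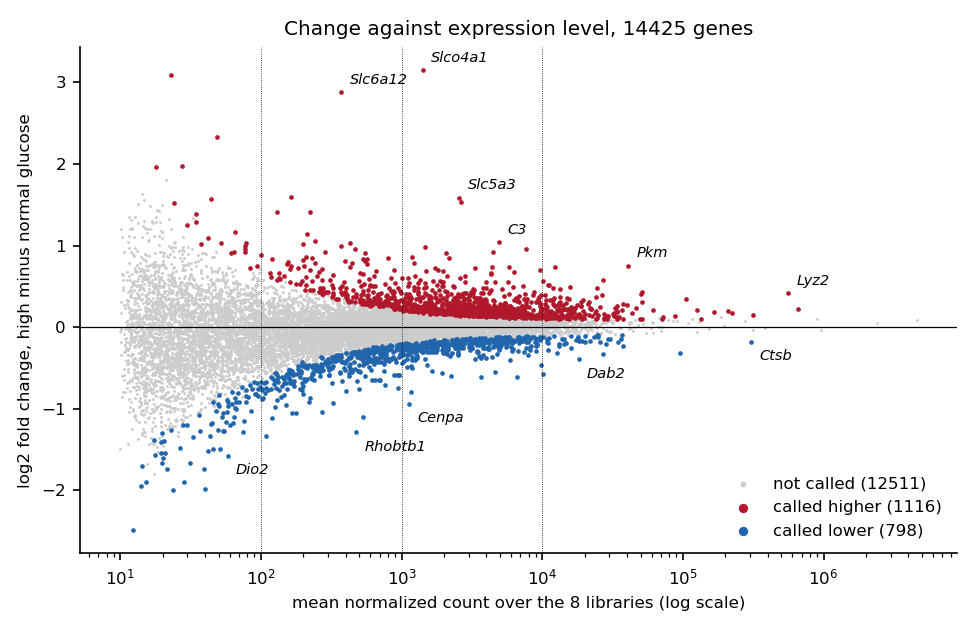
Log2 fold change (high minus normal glucose, vertical axis) of each of the 14425 genes against its mean normalized count over the 8 libraries (horizontal log axis), with called higher genes in red, called lower genes in blue and the others in grey. Dotted lines mark the borders of the level classes, and above 10000 normalized counts the called points are mostly red (174 higher, 41 lower).

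The tilt was also present over all genes, called or not. The median log2 fold change over all genes of a class was -0.109 from 10 to 100 normalized counts, -0.027 from 100 to 1000, 0.028 from 1000 to 10000 and 0.059 above 10000, and the share of genes with a positive fold change rose from 39.2% to 43.8%, 60.2% and 69.3%. Each library showed it. In the lowest class the median deviation of a library from the mean of each gene was 0.104, 0.077, 0.096 and 0.104 in normal glucose 1, 3, 5 and 6, and -0.006, -0.003, -0.025 and -0.024 in high glucose 1, 2, 4 and 6. Above 10000 normalized counts it was -0.016, -0.039, -0.029 and -0.024 in the normal glucose libraries and 0.029, 0.026, 0.026 and 0.035 in those of high glucose. The groups did not overlap in any of the 4 classes. The share of each library taken by the 100 genes with the highest mean over the 8 libraries was 40.8% ± 1.02 (SD, n = 4) in normal glucose and 41.5% ± 0.294 (SD, n = 4) in high glucose (exact two-sided permutation test, p = 0.229). The most abundant gene, Gm23935, took between 8.78% and 12.7% of a library, and without it the shares were 33.4% ± 0.145 and 34.1% ± 0.119 (n = 4 each, exact p = 0.0286, the smallest that 4 against 4 libraries allow). The tilt was kept with TMM factors, edgeR and DESeq2, and it was not left after quantile normalization. The called genes of the 4 classes from low to high then comprised 36 higher and 37 lower, 219 and 243, 441 and 479, and 93 and 113. Its cause was not tested.

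**Figure D2:**
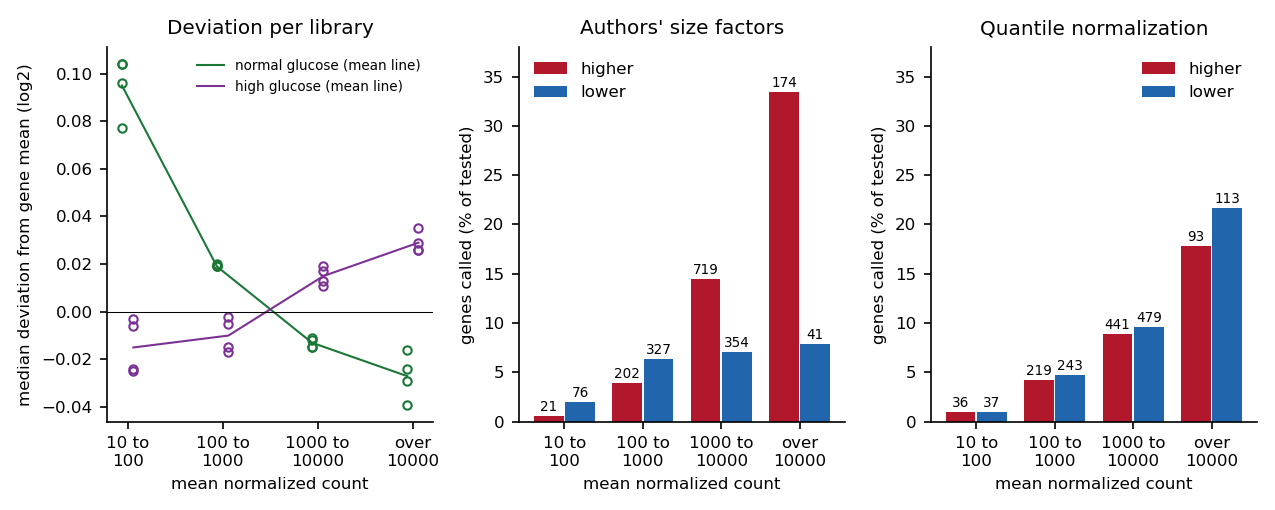
Left, the median deviation of each library from the gene means (log2, vertical axis) in 4 classes of mean normalized count, with 1 circle per library and lines through the group means. Middle and right, the share of genes called higher (red) and lower (blue) in each class with the authors' size factors and after quantile normalization, with the number of genes above each bar: from 21 and 76 to 174 and 41 on the left of these, and from 36 and 37 to 93 and 113 on the right.

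The called higher genes held 19.5% of the normalized counts in normal glucose and 22.1% in high glucose, and the called lower genes 6.59% and 5.46%. The direction of both shifts follows from how the genes were chosen, and only their size is described. The 10 genes with the largest gain made up 32.5% of the summed gain, and the 10 with the largest loss 25.4% of the summed loss. Lyz2, which encodes the bacteriolytic enzyme lysozyme, gained most, from 447542 to 513420 normalized counts in the normal glucose libraries to between 599482 and 664964 in the high glucose libraries, with no overlap (log2 fold change 0.42, standard error 0.0399, adjusted p = 7.08e-10, limma). Lyz2 was the 6th most abundant gene in each of the 8 libraries, so that quantile normalization gives it the same value in all of them by construction (log2 fold change -0.00), which does not bear on the rise. With TMM factors, edgeR and DESeq2 it was 0.42. Pkm, the pyruvate kinase of glycolysis, rose by 0.76 on the log2 scale, the ferritin heavy chain gene Fth1 by 0.15, the M-CSF receptor gene Csf1r by 0.35 and Ahnak, a large scaffold protein of the membrane skeleton, by 0.17. The largest losses were in Ctsb, the lysosomal protease cathepsin B, which went from between 313420 and 329917 normalized counts to between 275805 and 290966 (log2 fold change -0.18, adjusted p = 0.000179, limma). Selenop, a secreted selenium carrier, fell by 0.32, Pltp, a phospholipid transfer protein, by 0.33, and Dab2, an endocytic adaptor, by 0.40. The mitochondrially encoded mt-Cytb fell by 0.19 with overlapping groups, and its highest value of 44469 normalized counts was in normal glucose 3.

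The largest relative changes were in genes of low to middle level. Of the 81 called genes that changed by at least 1 on the log2 scale, 62 had a mean under 100 normalized counts (14 higher, 48 lower), 15 had a mean of 100 to 1000 and 4 had one of 1000 to 10000, and these 4 were all higher. Where the mean was 50 or more and the groups did not overlap, the 5 that led the called genes were Slco4a1 (an organic anion transporter), Slc6a12, Acod1, Slc5a3 and Fxyd2, and the plot of the 30 largest changes shows them with the 10 that followed. Slc7a11, which exchanges cystine for glutamate, stood at 52.9, 103, 73.5 and 54.5 normalized counts in the 4 normal glucose libraries (in the order 1, 3, 5 and 6, as throughout) and at 136, 197, 181 and 236 in the 4 high glucose libraries (1, 2, 4 and 6) (log2 fold change 1.41, standard error 0.220, adjusted p = 1.2e-05, limma). Its groups did not overlap, and normal glucose 3 was the highest of its group. C3, the central complement component, was the most precise of the large changes, at 3608, 3151, 2998 and 3130 against 6609, 6682, 6675 and 6571 (log2 fold change 1.05, standard error 0.0467, adjusted p = 2.51e-18, limma). The antisense RNA gene Gm20658 rose by 1.41, Cd300e, an activating receptor of myeloid cells, by 1.17, the interferon-induced Ifi44 by 1.14 and Ly6a, which encodes the surface protein Sca-1, by 1.06. Kcnj9, a potassium channel subunit, rose by 1.03, as did Shb, an adaptor of tyrosine kinase receptors, and Gcm2, a transcription factor, and Slc39a4, a zinc importer, rose by 1.02.

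On the lower side the 5 largest were Dio2 (the deiodinase that activates thyroxine), the non-coding Mirt1, Spef2, Rhobtb1 and Spata25. Rhobtb1 went from 553, 750, 710 and 694 normalized counts to 330, 274, 267 and 236. Its opposite-strand partner A930033H14Rik, counted on its own strand, had a log2 fold change of -1.27. P2ry12 and Gpr34, which encode receptors for ADP and for lysophosphatidylserine, fell by 1.11 and 1.04 on the log2 scale. P2ry12 stood at 176, 177, 119 and 183 against 72.0, 67.8, 105 and 59.9, and Gpr34 at 293, 456, 345 and 374 against 187, 200, 186 and 135. Pf4, the chemokine platelet factor 4, fell by 1.11, from between 578 and 841 to between 271 and 455. The second marker of megakaryocytes listed, Itga2b, had a mean of 26.1 normalized counts in normal glucose and 19.8 in high glucose and was not called, and Gp9, Gp1bb and Ppbp were not among the listed genes. Smpd3, a sphingomyelinase that forms ceramide, fell by 1.17, Tmem231, a protein of the cilium base, by 1.17, Itgb3bp, a centromere protein, by 1.10, the non-coding 9430037G07Rik by 1.10, and Adam22 and Clstn1, which are membrane proteins, by 1.05 each. All 30 of these calls held with TMM factors, quantile normalization, edgeR and DESeq2. These fits use the same libraries in which the 30 were picked as large and not overlapping, so that they are no independent check. Without the trend of the variance 5 did not pass (Gcm2, Spata25, A930033H14Rik, Tmem231 and 9430037G07Rik, with an adjusted p of 0.0546 to 0.116, limma). The fit with the library number as a block draws its contrast only from libraries 1 and 6 of each group. Every other number occurs in 1 group only. In that fit 8 of the 30 did not pass (Cd300e, Kcnj9, Gcm2, Mirt1, Tmem231, Smpd3, Itgb3bp and 9430037G07Rik). The calls of Kcnj9, 9430037G07Rik and A930033H14Rik were lost when high glucose 2, high glucose 2 or normal glucose 3, and normal glucose 6 were left out.

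**Figure D3:**
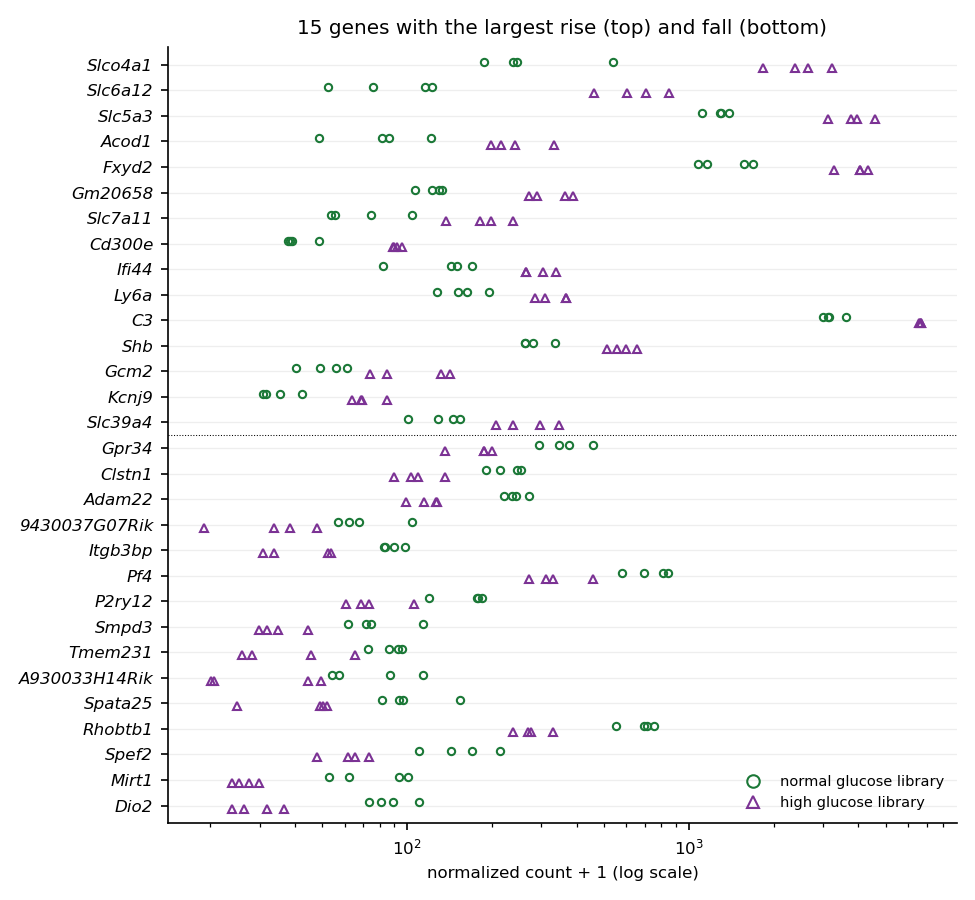
Normalized count plus 1 (horizontal log axis) in each of the 4 normal glucose libraries (green circles) and the 4 high glucose libraries (purple triangles) for the 15 genes with the largest rise and the 15 with the largest fall among called genes that averaged 50 or more normalized counts and whose groups did not overlap. Most genes lie under 1000 normalized counts, and Slco4a1 and Slc6a12 show the widest gaps.

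The calls with the smallest p-values were also taken from each level class. In the class of 10 to 100 normalized counts, Ndrg2, a stress-responsive gene, ranged from 8.03 to 26.0 in normal glucose and from 44.9 to 95.8 in high glucose (log2 fold change 2.33, adjusted p = 1.68e-05, limma). The non-coding B230312C02Rik rose by 3.09, from a mean of 5.61 to one of 40.4 normalized counts. Its normal glucose mean was below the filter of 10, so that it passed only through the high glucose libraries. B230312C02Rik occupies chr2:180370491-180385885 (GRCm38, minus strand), near Slco4a1 at chr2:180456245-180474867 on the plus strand. Klhl23, which encodes a Kelch-domain protein, fell by 1.74 in the same class. From 1000 to 10000 normalized counts, Pla2g7 rose by 0.96 and C3 by 1.05, while Entpd1, the surface enzyme CD39 that breaks down extracellular ATP, fell by 0.61. Above 10000 the leaders were Pkm and Cat on the higher side and Dab2 and Atp6v0a1 on the lower side.

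Hand-written lists of genes (73 lists with 2936 of the tested genes) were used to describe functional groups. They hold 651 of the called genes, and 1263 called genes are in no list. The median log2 fold change was above 0 in 52 lists and below 0 in 18, whereas after quantile normalization it was above 0 in 39 and below 0 in 29. The share of called genes in a list is to be read beside 7.74% higher and 5.53% lower over all genes, and beside the level of its members, because 14.4% of genes from 1000 to 10000 normalized counts and 33.4% of those above 10000 were called higher. Of the 56 lists with at least 5 called members, 44 held fewer calls by over 1.5 times with the library number as a block, 46 without the trend of the variance, and 7 after quantile normalization, which turned the balance of higher and lower calls in 8. Leaving out high glucose 6 alone lowered the count by over 1.5 times in 11 lists and leaving out normal glucose 5 in 11, against 0 to 7 for each other library. Counts without a library are given beside a list where they fell by over 1.5 times. Counts with the block or without the trend are given for some lists only, so that their absence does not mean that a count held.

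**Figure D4:**
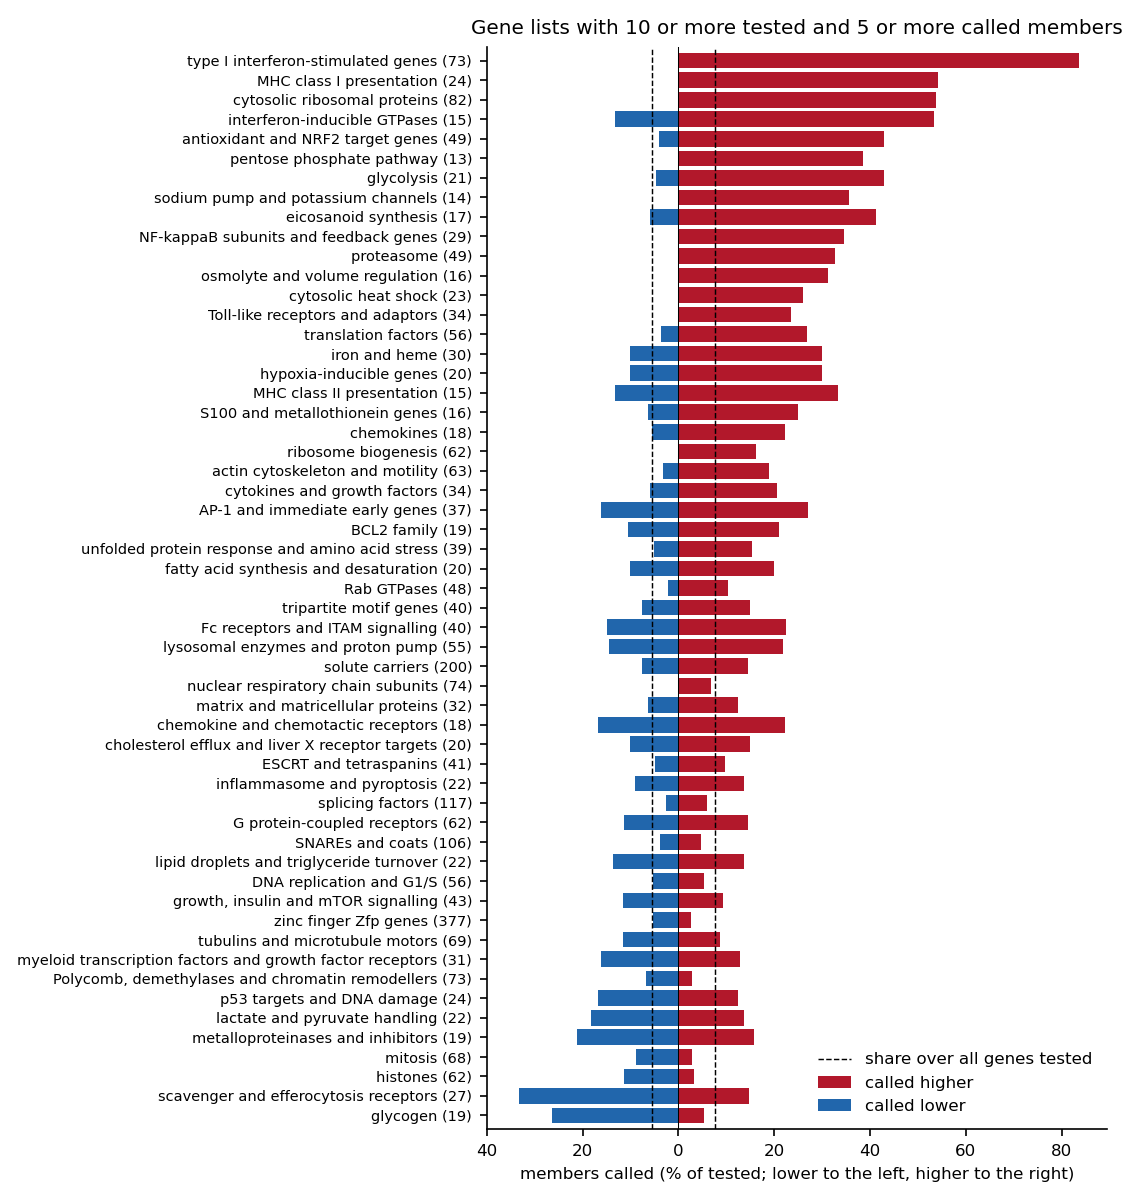
Share of the tested members called higher (red, to the right) and lower (blue, to the left) in each list with at least 10 tested and 5 called members (limits set after the counts were seen), with the number tested in brackets. Dashed lines mark the shares over all genes tested, 7.74% higher and 5.53% lower, and type I interferon-stimulated genes stand at the top with 83.6% called higher and none lower.

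**Figure D5:**
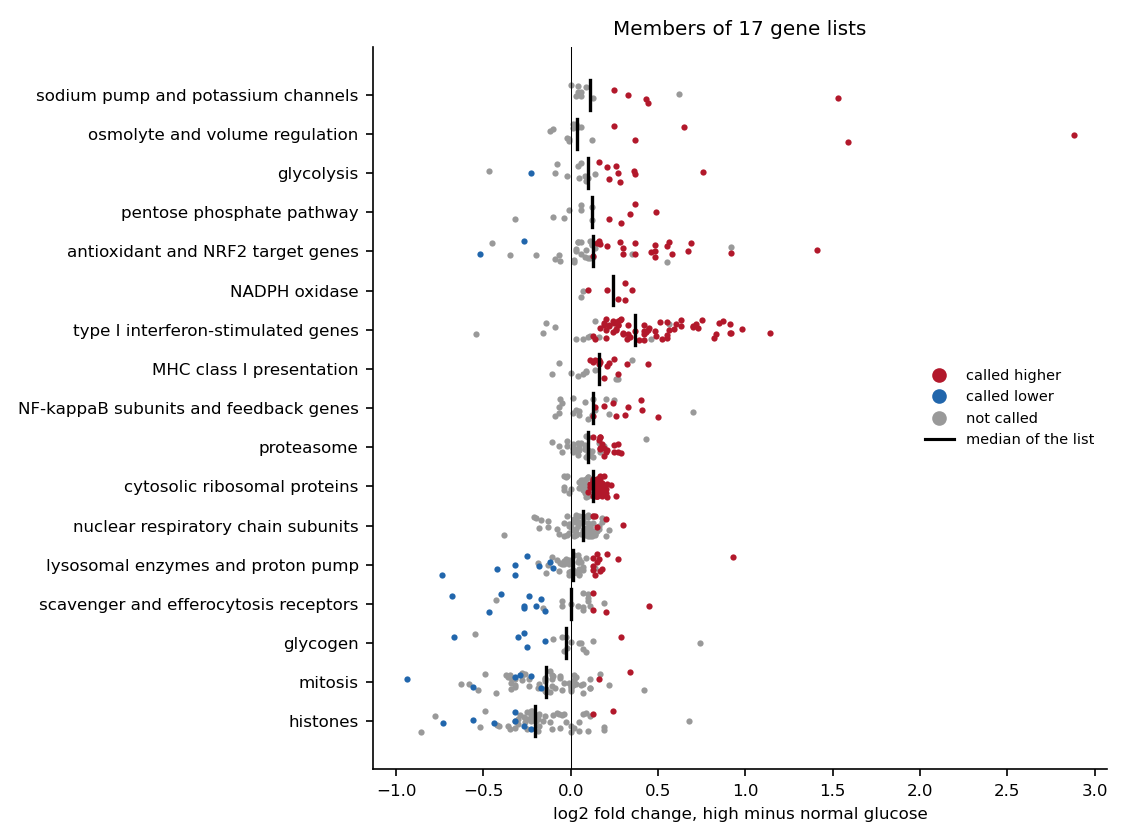
Log2 fold change (high minus normal glucose, horizontal axis) of each member of selected lists, with called higher members in red, called lower members in blue, the others in grey and the median as a black bar. The medians run from 0.37 for the type I interferon-stimulated genes to -0.21 for the histones.

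Transporters of organic solutes and ions were among the largest single changes. Of 16 tested genes of osmolyte transport and volume regulation, 5 were called higher and none lower (median log2 fold change 0.03, and 5 and 2 after quantile normalization). Slc6a12, the betaine transporter, went from 115, 74.7, 51.6 and 122 normalized counts to 460, 601, 702 and 853 (log2 fold change 2.88, standard error 0.194, adjusted p = 1.71e-13, limma). Slc5a3, the sodium-coupled inositol transporter, went from between 1114 and 1388 to between 3124 and 4583. Slc5a3 lies within Mrps6 on the same strand, and Mrps6, a mitochondrial ribosomal protein gene, rose by 0.96, so that the reads of the pair may be shared. Slc38a2, an amino acid transporter that also serves in volume regulation, rose by 0.65, Akr1b3, the aldose reductase that makes sorbitol from glucose, by 0.25, and the kinase gene Sgk1 by 0.37. Slc6a6, the taurine transporter, had 47649 and 48675 normalized counts and a log2 fold change of 0.03 that was not called, and after quantile normalization one of -0.11 that was called lower. Of 14 tested genes of the sodium pump and potassium channels, 5 were called higher, and all 14 had a positive fold change (median 0.11). Fxyd2, a small regulatory subunit of the pump, stood at 1687, 1164, 1075 and 1569 against 3286, 4045, 4057 and 4316, and the potassium channel gene Kcnj2 rose by 0.43, while Atp1b3 (0.04) was not called.

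The tonicity element (TonE, the binding motif of NFAT5, searched on both strands) was found in a promoter window of 1 of the 11 osmolyte and volume genes that had a window, which was Slc6a12. The windows hold 250 bases before and 50 after a start site (RefSeq, GRCm38.p6), and 9734 of the tested genes had at least 1. TonE was found for 4.49% of them, for 5.03% of the called higher genes and for 4.48% of the called lower genes. The Slc6a12 stretch is shown with the motif in capitals, on the plus strand at chr6:121342459-121342549.
Slc6a12: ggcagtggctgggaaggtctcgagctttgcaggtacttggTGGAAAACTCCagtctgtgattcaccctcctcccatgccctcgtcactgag

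Of 13 tested sugar transporters, 2 were called higher and 2 lower. Slc2a1, the ubiquitous glucose transporter GLUT1, stood at 787, 883, 1020 and 968 against 1241, 1272, 1458 and 1337 (log2 fold change 0.54, adjusted p = 1.66e-06, limma), and the lysosomal Slc2a6 rose by 0.69. Slc2a3 (0.13) was not called. Of 21 genes of glycolysis, 9 were called higher and 1 lower (median 0.10), and the members added up to between 111612 and 119258 normalized counts in normal glucose and between 146348 and 158923 in high glucose. Pkm stood at 32108, 29072, 29828 and 30654 against 48274, 48969, 53973 and 54298, the aldolase gene Aldoa rose by 0.37, the enolase gene Eno1 by 0.36 and the phosphofructokinase gene Pfkl by 0.21, while the hexokinase gene Hk2 was at 2246 and 2316 normalized counts (0.04, not called). After quantile normalization 8 were called higher and 1 lower. In the pentose phosphate pathway Pgd rose by 0.49, Taldo1 by 0.37, Tkt by 0.34 and G6pdx by 0.29, and 5 of the 13 tested members were called higher and none lower. For lactate and pyruvate handling the list was divided, with 3 higher and 4 lower of 22, and 2 and 2 without high glucose 2. The lactate dehydrogenase gene Ldha (0.34) and the lactate exporter gene Slc16a3 (0.36) were higher, and Slc16a7, another monocarboxylate transporter, was lower (-0.25).

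Of 19 tested genes of glycogen metabolism, 1 was called higher and 5 lower (0 and 2 without high glucose 6, and 0 and 3 without normal glucose 5). The counts were 0 and 1 with the block, and also without the trend of the variance. Gyg, which primes glycogen, fell by 0.25 on the log2 scale, and the phosphorylase kinase subunits Phkb and Phka2 by 0.27 and 0.15, while the branching enzyme gene Gbe1 rose by 0.29, and the synthase Gys1 (-0.05) and the phosphorylase Pygl (0.00) were not called. Of 15 tested genes of the hexosamine pathway and O-GlcNAc, 1 was called higher and 2 lower (1 and 4 after quantile normalization), and neither the rate-limiting Gfpt1 (-0.14) nor the transferase Ogt (-0.03) nor Mgea5, which removes the sugar (-0.01), was called. Of 11 genes of polyol and fructose metabolism, 3 were called higher, among them Akr1b8 (0.45). The glucose-responsive arrestin Txnip rose by 0.25, from between 22473 and 24439 normalized counts to between 26856 and 28195, and its relative Arrdc4 rose by 0.60, whereas Arrdc3, of the same family, fell by 0.62, from between 3924 and 4689 to between 2704 and 3053.

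Of 49 tested antioxidant genes and targets of the transcription factor NRF2, 21 were called higher and 2 lower (median 0.13, and 17 and 1 after quantile normalization). The counts were 14 and 0 with the block, and also without the trend of the variance. Gclm, the regulatory subunit of the enzyme that starts glutathione synthesis, went from between 2942 and 3177 normalized counts to between 5277 and 6226 (log2 fold change 0.92, standard error 0.0481, adjusted p = 1.4e-16, limma). The thioredoxin reductase gene Txnrd1 rose by 0.69, the heme oxygenase gene Hmox1 by 0.56 and Cat, the catalase that breaks down hydrogen peroxide, by 0.58, from between 21128 and 22777 to between 30580 and 33120. Nqo1, a quinone reductase, rose by 0.67 at a level of 89.2 against 143 normalized counts. Of 8 tested genes of the NADPH oxidase, 6 were called higher and none lower (median 0.24). Cybb, the catalytic subunit gp91phox, stood at 46019, 46756, 45193 and 45882 against 54761, 57144, 57003 and 59052, and the cytosolic subunit genes Ncf1 and Rac2 rose by 0.31 and 0.35, while Cyba (0.06) was not called. Of 30 tested genes of iron and heme, 9 were called higher and 3 lower (4 and 1 with the block, and 5 and 1 without the trend). Both ferritin chains rose, Fth1 by 0.15 and Ftl1 by 0.18, together with Slc48a1, a heme transporter (0.39), and the transferrin receptor gene Tfrc (0.49), and the iron exporter Slc40a1 (0.00) was not called.

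The antioxidant response element (ARE, searched as TGAC, any 3 bases and GC, on both strands) was found in a promoter window of 15 of the 43 antioxidant and NRF2 genes that had a window, which is 34.9%, against 17.1% of all tested genes with a window, 18.9% of the called higher and 18.1% of the called lower genes. Stretches of 2 members called higher are shown with the match in capitals, on the plus strand at chr3:122245383-122245471 and chr10:82859074-82859162.
Gclm: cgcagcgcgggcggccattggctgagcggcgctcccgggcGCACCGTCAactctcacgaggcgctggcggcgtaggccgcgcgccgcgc
Txnrd1: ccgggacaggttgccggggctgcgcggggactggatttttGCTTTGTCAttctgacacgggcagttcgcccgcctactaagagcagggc

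Interferon-stimulated genes made up the list with the highest share of calls. Of 73 tested, 61 (83.6%) were called higher and none lower (median 0.37), and 69 had a positive fold change. After quantile normalization 56 were called higher and 1 lower, with the block 57 were called higher, and without the trend of the variance 28 were. Ifit1, whose protein binds foreign RNA, stood at 1145, 980, 1027 and 808 against 2227, 1924, 1712 and 1916 (log2 fold change 0.98, standard error 0.0794, adjusted p = 1.84e-11, limma). Ifit3 rose by 0.91, the ubiquitin-like Isg15 by 0.92, the nucleotide kinase gene Cmpk2 by 0.87 and the transcription factor gene Irf7 by 0.60. The 4 libraries of a group were not alike: the summed level ran from 213733 to 253044 normalized counts in normal glucose and from 260084 to 296589 in high glucose, and for Irf7 the lowest high glucose value (2498) lay below the highest normal glucose value (2509). The interferon-inducible GTPases, which attack the vacuoles of pathogens, comprised 8 higher and 2 lower of 15 (median 0.34), with Iigp1 at 0.99, Ifi47 at 0.69 and Igtp and Irgm1 at 0.51 and 0.49. Of 40 tripartite motif genes 6 were higher and 3 lower, 4 and 4 after quantile normalization, and 4 and 1 without high glucose 6. Trim21 and Trim30a rose by 0.25 and 0.27 and Trim68 fell by 0.50.

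The interferon-stimulated response element (ISRE, searched as GAAA, any 2 bases and GAAA, on both strands) was found in a promoter window of 32 of the 59 interferon-stimulated genes that had a window (54.2%). It was found for 4.01% of all tested genes with a window, for 9.38% of the called higher genes, for 6.55% of the called higher genes outside the list and for 3.65% of the called lower genes. Only members of that list were left out for the 6.55%, so that other interferon-inducible genes may remain in it. The palindromic E-box, searched as CACGTG, had shares of 11.9% over all genes, 9.27% in the called higher and 11.4% in the called lower genes. For 3 members the stretch with the ISRE in capitals is shown, at chr19:34640745-34640853 and chr19:34583333-34583456 on the plus strand and at chr4:156200835-156200936 on the minus strand. Ifit1 and Ifit3 hold 2 matches each and Isg15 holds 3 that overlap.
Ifit1: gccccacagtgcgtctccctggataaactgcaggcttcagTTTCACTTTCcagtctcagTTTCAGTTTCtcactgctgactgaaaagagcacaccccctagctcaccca
Ifit3: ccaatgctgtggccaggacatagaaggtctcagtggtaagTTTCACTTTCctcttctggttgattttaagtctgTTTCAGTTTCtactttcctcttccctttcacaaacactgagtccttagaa
Isg15: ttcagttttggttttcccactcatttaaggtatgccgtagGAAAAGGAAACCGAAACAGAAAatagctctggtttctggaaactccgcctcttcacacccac

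Of 24 tested genes of the MHC class I pathway, 13 were called higher and none lower (median 0.16, and 8 after quantile normalization). H2-T24 rose by 0.44, the peptide loading factor gene Tapbp by 0.22, the immunoproteasome subunit gene Psmb8 by 0.25, the regulator gene Nlrc5 by 0.32, H2-K1 by 0.13 and B2m, the light chain, by 0.11, while the peptide transporter Tap1 (-0.07) was not called. With the block 5 of the 24 were called, and without the trend of the variance 1 was. In the MHC class II list 5 of 15 were called higher and 2 lower (2 and 1 with the block, and 2 and 0 without the trend). Cd74, the invariant chain, stood at 3404, 3082, 3224 and 3504 against 4856, 4865, 4181 and 4537 (log2 fold change 0.48, adjusted p = 5.48e-09, limma), the master regulator gene Ciita rose by 0.55 and H2-Ab1 by 0.37, and the costimulatory Cd86 fell by 0.54.

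Of 34 tested Toll-like receptors and adaptors, 8 were called higher and none lower (median 0.06), and of 29 NF-kappaB subunits and feedback genes, 10 were higher and none lower (median 0.13). The higher calls of the NF-kappaB list numbered 5 with the block and 6 without the trend of the variance. Tlr2, the receptor for bacterial lipoproteins, rose by 0.43, Tlr4, the endotoxin receptor, by 0.28, its coreceptor gene Cd14 by 0.39, the adaptor gene Myd88 by 0.16 and the transcription factor gene Irf5 by 0.24. Nfkbiz rose by 0.50, the inhibitor gene Nfkbia by 0.40 and Tnfaip2 by 0.31, Nfkb1 by 0.13 and Tnfaip3 by 0.24, and Rela (0.12) was not called. Of 34 cytokine and growth factor genes, 7 were higher and 2 lower (6 and 4 after quantile normalization). Tnf stood at 339, 380, 277 and 298 against 500, 569, 476 and 608 (log2 fold change 0.74, adjusted p = 8.64e-06, limma), while Il1b (0.70, at 54.2 and 77.6 normalized counts) and Il10 (0.69, at 34.3 and 55.8) were not called at their low level. Igf1, a growth factor that macrophages secrete, rose by 0.27. Among 18 chemokines 4 were higher and 1 lower, with Cxcl16 at 0.34 and Ccl9 at 0.27, and Cxcl2 (0.66, adjusted p = 0.0502, limma) and Ccl3 (0.26, adjusted p = 0.051) just outside the threshold. Among 18 chemotactic receptors 4 were higher and 3 lower: Cx3cr1, the fractalkine receptor, rose by 0.73, from between 4114 and 4596 to between 6286 and 8038, and Ccr2 and C5ar1 rose by 0.22 and 0.23, whereas Ptafr fell by 0.25 on the log2 scale. Of 22 genes of the inflammasome and pyroptosis, 3 were higher and 2 lower (3 and 4 after quantile normalization), with Panx1, a channel that releases ATP, at 0.81 and Ninj1, which ruptures dying cells, at 0.41, and Nlrp3 (-0.09), Casp1 (0.10), Gsdmd (0.12) and Pycard (-0.03) not called.

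In eicosanoid synthesis 7 of 17 were called higher and 1 lower (median 0.21). Pla2g7, which hydrolyses platelet-activating factor, stood at 4998, 5421, 4864 and 5417 against 9269, 10245, 10397 and 10306 (log2 fold change 0.96, standard error 0.0430, adjusted p = 2.51e-18, limma). Hpgd, which inactivates prostaglandins, rose by 0.68 and the 5-lipoxygenase gene Alox5 by 0.79, Ptgs1 rose by 0.21, and Ptgs2 (0.70, at 20.1 and 34.8 normalized counts) was not called. Of 26 genes of sterol synthesis and uptake, 2 were higher and 1 lower (0 and 1 after quantile normalization). Hmgcs1 fell by 0.20, and Sqle (-0.28) was not called. Fatty acid synthesis and desaturation had 4 higher and 2 lower of 20, with the synthase gene Fasn at 0.20, Acsl4 at 0.21 and Acsl3 and Acss1 at -0.51 and -0.44. These counts became 2 and 2 after quantile normalization, 2 and 1 with the block, 2 and 3 without high glucose 4, and 0 and 2 without the trend of the variance. Fatty acid oxidation had 2 higher and 2 lower of 28 (1 and 3 after quantile normalization), with the peroxisomal thiolase gene Acaa1a at 0.38 and Echs1 at -0.36. Cholesterol efflux and liver X receptor targets had 3 higher and 2 lower of 20 with the authors' size factors and 3 and 7 after quantile normalization. Abca1 fell by 0.17 and Abcg1, its partner in efflux, rose by 0.13, Abca7 rose by 0.47 and the acid lipase gene Lipa by 0.23, and Apoe (0.08, at 268869 and 283947 normalized counts) was not called. Plin2, which coats lipid droplets, rose by 0.12.

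Of 82 cytosolic ribosomal protein genes, 44 were called higher and none lower (53.7%), with a median of 0.13 and an interquartile range from 0.09 to 0.15. Their summed share ran from 1.94% to 2.08% of a library in normal glucose and from 2.04% to 2.14% in high glucose, ranges that overlap. Rplp0 stood at 32665, 29826, 31824 and 32615 against 36622, 36242, 36032 and 35903, with normal glucose 3 the lowest. Rps3 rose by 0.23 and Rpl8 by 0.19. The count was 24 without normal glucose 3, 27 without high glucose 4, 17 higher and 1 lower after quantile normalization, 1 with the block and 0 without the trend of the variance. Translation factors comprised 15 higher and 2 lower of 56 (8 and 3 after quantile normalization), with Eif3b at 0.24 and Eif4g1 at 0.18. Their higher calls numbered 8 without high glucose 4, 9 without high glucose 6 and 10 without normal glucose 5, each beside 1 lower. With the block 1 was higher and 0 were lower, and without the trend 2 and 0. In ribosome biogenesis 10 of 62 were higher and none lower (median 0.11): the helicase gene Ddx21 rose by 0.41 and Nolc1 by 0.37, and Ncl (-0.02), Npm1 (0.03) and Fbl (-0.02) were not called. Of 49 proteasome genes 16 were higher and none lower (median 0.10), with Psmd7 at 0.29, and 10 after quantile normalization, 9 without high glucose 6, 10 without high glucose 2, 4 with the block and 1 without the trend. Cytosolic heat shock genes comprised 6 higher of 23 and none lower, among them Hsph1 (0.32), Hsp90aa1 (0.21) and Hsp90ab1 (0.20), and 3 without either high glucose 6 or normal glucose 5. In the unfolded protein response and amino acid stress list, 6 were higher and 2 lower of 39: Xbp1 rose by 0.30, Hyou1 by 0.21, Atf4 by 0.14 and Hspa5 by 0.12, the sensor gene Ern1 fell by 0.20, and Ddit3 (-0.03) was not called. The counts of this list were 3 higher and 2 lower after quantile normalization, 4 and 1 without high glucose 2, 1 and 0 with the block, and 2 and 0 without the trend.

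The mitochondrially encoded genes took 8.81% ± 0.650 (SD, n = 4) of a library in normal glucose and 8.59% ± 0.295 (SD, n = 4) in high glucose (exact two-sided permutation test, p = 0.571). Of 13 tested, mt-Cytb was called lower, and 4 were called lower after quantile normalization. Of 74 nuclear genes for respiratory chain subunits, 5 were called higher and none lower, though 57 had a positive fold change (median 0.07), and 1 was called after quantile normalization. Leaving out high glucose 2, high glucose 4, high glucose 6, normal glucose 3 or normal glucose 5 left 3, 3, 1, 2 and 2 calls. Cyc1 rose by 0.30, Cox4i1 by 0.15 and Atp5b by 0.14. In the mitochondrial ribosome 3 of 77 were higher. The tricarboxylic acid cycle list had 3 higher and 1 lower of 22. Acod1, which makes itaconate from a cycle intermediate, stood at 85.4, 121, 80.3 and 47.8 against 214, 240, 198 and 331 (log2 fold change 1.59, standard error 0.215, adjusted p = 9.95e-07, limma). The cytosolic Idh1, which also forms NADPH, rose by 0.46 and the citrate synthase gene Cs by 0.17, and the mitochondrial Idh2 fell by 0.22.

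Of 27 tested scavenger and efferocytosis receptors and adaptors, 9 were called lower and 4 higher (10 and 2 after quantile normalization). Without the trend of the variance 4 were lower and 1 higher, and with the block 7 and 2. Mrc1, the mannose receptor CD206, stood at 10252, 11271, 11710 and 12207 against 8831, 8410, 8330 and 7271 (log2 fold change -0.47, standard error 0.0480, adjusted p = 3.84e-09, limma). Mertk, which binds dying cells, fell by 0.40, from between 6409 and 6895 to between 4745 and 5314, and Itgb3, an integrin chain of the same process, by 0.68. Cd68 fell by 0.15 and Dab2, which links cargo to clathrin, by 0.40. Colec12 rose by 0.45, and Msr1 (-0.05) and Cd36 (0.07) were not called. Lysosomal enzymes and the proton pump were divided, with 12 higher and 8 lower of 55, and the balance turned to 6 higher and 11 lower after quantile normalization. Without normal glucose 5 the counts were 6 and 6 and without high glucose 6 they were 7 and 6, while the block gave 1 and 3 and the fit without the variance trend 2 and 5. The pump subunit genes Atp6v0d2 and Atp6v0a1 fell by 0.74 and 0.32, the former from between 1111 and 1283 to between 632 and 762, and Ctsb fell, whereas Ctss, a protease of antigen processing, rose by 0.21, and Ctsk rose by 0.93 at 53.6 against 99.5 normalized counts. Ctsk is also a marker of osteoclasts, of which Acp5 (0.13) and Dcstamp (-0.13) were not called and Calcr, Ocstamp and Oscar had no entry. Neither Ctsd (0.05) nor Lamp1 (0.05) nor the regulator Tfeb (-0.01) was called. In autophagy 2 of 38 were higher and 1 lower (2 and 4 after quantile normalization), with the cargo receptor gene Sqstm1 at 0.33.

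Among 40 Fc receptor and ITAM signalling genes 9 were higher and 6 lower, and 7 and 9 after quantile normalization. Fcgr2b, the inhibitory Fc receptor, fell by 0.57 from between 2171 and 2428 normalized counts to between 1468 and 1711, Cd300lf fell by 0.50 and Fcgr3 by 0.13, Fcer1g rose by 0.14 and the phosphatase gene Ptpn6 by 0.27, and Fcgr1 (0.11) was not called. Of 18 integrins 2 were higher and 2 lower (2 and 3 after quantile normalization), with Itgal at 0.35 and Itga9 at -0.65. Of 16 tested markers of alternative activation 3 were higher and 1 lower. Among them Mrc1 fell, F13a1 (0.38) and Tfrc rose, and Chil3 (-0.42, at 68.0 and 55.0 normalized counts) was not called. Of 16 complement genes 2 were higher, C3 and C5ar1, and 1, Cfp (-0.20), was lower, and C1qa and C1qb (0.08 each) were not called. Of 62 G protein-coupled receptors 9 were higher and 7 lower (6 and 7 after quantile normalization, and 4 and 5 without normal glucose 5), with the prostacyclin receptor gene Ptgir at 0.57. Of 200 solute carriers 29 were higher and 15 lower (median 0.02, and 25 and 18 after quantile normalization), shares of 14.5% and 7.5%.

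Of 68 genes of mitosis 6 were called lower and 2 higher, and 50 had a negative fold change (median -0.14, or -0.08 after quantile normalization, at a median level of 270 normalized counts). The counts were 0 higher and 5 lower without high glucose 2 and without high glucose 6, 2 and 3 without normal glucose 3, 0 and 3 without normal glucose 5 and with the block, and 1 and 3 without the variance trend. Cenpa, the centromere histone, stood at 1260, 1564, 1761 and 1395 against 931, 698, 704 and 781 (log2 fold change -0.94, standard error 0.0871, adjusted p = 4.37e-10, limma). Cenpe and Kif23 fell by 0.32 and 0.29, while Mki67 (-0.10), Top2a (-0.14), Cdk1 (-0.11) and Ccnb1 (-0.00) were not called. DNA replication genes had 3 higher and 3 lower of 56 (3 calls in all without high glucose 1 or high glucose 2, and 2 without normal glucose 3 or normal glucose 5): E2f2 rose by 0.58 and Pola1 fell by 0.35, and Mcm2 (0.02) and Pcna (-0.04) were not called. Of 62 histone genes 7 were lower and 2 higher (median -0.21, or -0.13 after quantile normalization, at a median level of 186), with H1f0 and Hist1h1c at -0.32 and -0.23 and H2afz at 0.24. Their counts were 5 lower and 2 higher after quantile normalization, 4 and 1 with the block, and 1 and 1 without the variance trend. The median over all genes from 100 to 1000 normalized counts was -0.027 with the authors' size factors. Of 377 zinc finger genes 20 were lower and 10 higher (median -0.05). In the list of Polycomb genes, demethylases and chromatin remodellers, 5 of 73 were lower and 2 higher (8 and 0 after quantile normalization, and 3 and 1 without high glucose 4). Kdm6b, an H3K27 demethylase, fell by 0.66 from between 546 and 643 normalized counts to between 331 and 397, and Tet2 fell by 0.16.

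Of 37 AP-1 and immediate early genes 10 were higher and 6 lower (6 and 6 after quantile normalization). Cebpb and Cebpd, which drive inflammatory genes, rose by 0.38 and 0.45, Egr1 fell by 0.44 and the RNA decay factor gene Zfp36l1 by 0.30, and Fos (-0.02), Jun (0.09) and Atf3 (-0.00) were not called. Among 31 myeloid transcription factors and growth factor receptors 4 were higher and 5 lower (3 and 9 after quantile normalization), and Csf1r and Spi1 rose by 0.35 and 0.23. The clock-controlled Dbp stood at 909, 1177, 1196 and 1190 against 760, 736, 752 and 710 (log2 fold change -0.59, adjusted p = 1.23e-06, limma), while Per1 (-0.12), Nr1d1 (-0.26) and Arntl (-0.10) were not called. In growth, insulin and mTOR signalling 4 were higher and 5 lower of 43, with Irs2 and Igf1r at -0.46 and -0.34 and Insr (-0.05) and Mtor (-0.06) not called. Of 20 hypoxia-inducible genes 6 were higher and 2 lower (3 and 1 without either high glucose 4 or high glucose 6): Egln3 rose by 0.83 and Slc2a1 by 0.54, Vegfa fell by 0.18, and Hif1a (0.09) was not called.

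Of 32 matrix and matricellular genes 4 were higher and 2 lower. Spp1, the secreted osteopontin, rose by 0.43, from between 42051 and 45335 normalized counts to between 53772 and 63971, and Col18a1 by 0.70. Thbs1 fell by 0.57, but its groups overlapped, at 9068, 12844, 14524 and 12383 against 10205, 8518, 7385 and 6654. Among 19 metalloproteinases and inhibitors 3 were higher and 4 lower, with Mmp27 at -0.82, Adam19 at -0.76, Timp2 at -0.19 and Mmp19 at 0.40. Of 63 actin cytoskeleton genes 12 were higher and 2 lower, and 8 and 9 after quantile normalization. Capg rose by 0.29 and Coro1a by 0.21, Plek fell by 0.30, and Actb (0.01, at 195211 and 196655 normalized counts) was not called. For vesicle traffic, Rab GTPases had 5 higher and 1 lower of 48. After quantile normalization the Rab calls were 1 and 1, without high glucose 2 they were 2 and 1, and neither with the block nor without the trend of the variance was any Rab gene called. SNAREs and coats had 5 higher and 4 lower of 106 (4 and 6 after quantile normalization), and ESCRT and tetraspanins 4 and 2 of 41 (2 and 3 after quantile normalization). Among genes that encode proteins used to mark exosomes, the cell RNA of Cd9 rose by 0.26 and that of Cd81 by 0.18. Cd63 (0.09) and Pdcd6ip, which encodes Alix (0.10, adjusted p = 0.0518, limma), were not called. Protein in exosomes was not measured by these libraries.

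Protein-coding genes held most of the calls. Of 11574 protein-coding genes 15.6% were called, 1076 higher and 730 lower, beside 7.20% of 347 lincRNA genes (4 higher, 21 lower), 3.28% of 762 genes annotated as TEC, a class of unproven gene models (7 higher, 18 lower) and 2.83% of 424 antisense genes. Among transcribed unprocessed pseudogenes the share was above that of protein-coding genes, at 21.2% of 33 (1 higher, 6 lower). The median level was 882 normalized counts for protein-coding and 43.0 for lincRNA genes. At 100 to 1000 normalized counts, 10.6% of the protein-coding and 8.36% of the other genes were called, and their median log2 fold changes were -0.020 and -0.083. At 1000 to 10000 normalized counts the order was the opposite, with 21.4% of 4920 protein-coding and 34.9% of 63 other genes called, the latter with 10 higher and 12 lower. Per chromosome the share called ran from 10.4% (chromosome 8) to 17.1% (chromosome 14). By length of the annotated exons it ran from 7.83% in the shortest of 4 equal classes of genes to 18.0% in the longest, beside a median level of 74.2 and 1733 normalized counts.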

How the data were processed

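BMDM RNA was sequenced as stranded total RNA libraries depleted of ribosomal cDNA. Reads were trimmed, mapped to GRCm38 with STAR and assigned to genes with FeatureCounts. The deposited signal is the count of a gene that the authors scaled by the median-ratio size factor of DESeq2, listed for 20 libraries, of which the 8 of the glucose experiment were used. The annotation behind the counting is not given in the sources used here. Names, positions and gene types come from GENCODE M21. Whole reads were recovered from the smallest step of each column (tolerance 0.001) for totals and for edgeR and DESeq2.

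Groups were compared on log2(normalized count + 1) by limma 3.58.1 (R 4.3.3, variance trend, two-sided, Benjamini-Hochberg adjustment across the genes tested). Alternatives were TMM factors, quantile normalization, edgeR 4.0.16, DESeq2 1.42.0, pseudocounts of 0.5 and 10, a minimum mean of 50, no filter, no variance trend, array weights, the library number as a block, stricter thresholds and the omission of single libraries. Python 3.11.15 with pandas 2.3.3, numpy 2.4.6 and matplotlib 3.10.9 made the summaries and plots. On simulated data with 200 changed genes among 14425, the test recovered 98.6% of log2 fold changes of 1 and 84.6% of those of 0.5 at a mean of 100 or more, and 26.6% and 2.83% below it, with 4.54% false calls. Only these sizes of change were simulated, whereas the 1914 called genes had a median absolute log2 fold change of 0.26. The 4.54% therefore does not give the false share among the calls reported here. TonE was searched by its consensus.

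The comparison, the hand-written gene lists and the rules were chosen with earlier results of these data known, so that lists are described by counts and medians without a test. Named genes are the 15 largest called changes in each direction (mean of 50 or more, no overlap), the first 4 genes of a list and up to 3 of its called members with the smallest p-values, the 5 protein-coding genes with the largest gains and the 5 with the largest losses in normalized counts, the cell markers, and the 2 called genes in each direction with the smallest p-values of a level class. Gm23935 was named after its values were seen. A few genes that the rule names are not reported here.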

Additional observations from a re-analysis of the deposited data

Results flagged for a closer look

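For 22 of 548 groups of 4 libraries of the named genes and library shares, 1 library stood apart from the other 3 by Dixon's test at its usual critical value. Chance flags about 1 in 20 groups, and normal glucose 3 was the library apart in 3 of the 22. All values are normalized counts, and no explanation was tested.

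Among the genes with the largest changes, Slco4a1 had 539 in normal glucose 1 against 187 to 245 in the other 3 libraries, which lies far below the 4 high glucose libraries. Cd300e had 47.8 in normal glucose 6 (others 36.7 to 38.1), P2ry12 had 119 in normal glucose 5 (176 to 183) and Spata25 had 23.9 in high glucose 6 (48.0 to 50.8). Ndrg2 had 44.9 in high glucose 1, where the others reached at most 95.8, and Pla2g7 had 9269 in the same library (10245 to 10397).

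High glucose 1 was also the lowest of its group for Mrps6 at 530 (632 to 653) and for Cat at 30580 (32702 to 33120). Cat had its highest normal glucose value, 22777, in normal glucose 6 (21128 to 21246). In that library Nlrp3 had 2935 (3250 to 3309), Cd63 had 14211 (12989 to 13130) and Kif23 had 911 (1128 to 1158). Normal glucose 1 had 2926 for Kcnj2 (2631 to 2661) and 909 for Dbp (1177 to 1196). Normal glucose 3 had 5261 for Slc48a1 (6033 to 6159), 105 for Cxcl2 (62.0 to 66.6) and 667 for Pola1 (542 to 560). Normal glucose 5 had 422 for Itgb3 (383 to 384). In high glucose, library 2 had 609 for Ciita (410 to 424) and 8109 for Plek (8004 to 8021), library 4 had 219 for Trim68 (273 to 284), and library 6 had 26856 for Txnip (28029 to 28195).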

How the results depend on the processing

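The count of 1914 changed genes (1116 higher, 798 lower) stayed within 1.5 times under TMM factors, quantile normalization, edgeR, DESeq2, other pseudocounts, other filters and array weights. Without the variance trend it was 654 (387 higher, 267 lower). At an adjusted p under 0.01 it was 1091 (686 and 405), for changes of 0.5 or more on the log2 scale it was 354 (142 and 212), and with one of at least 1 it was 81 (26 and 55). Blocking on the library number left 788 calls (518 higher, 270 lower), of which 721 were shared. In that fit only libraries 1 and 6 of each group inform the contrast, so that it is not a check on all 8 libraries. Numbers 1 and 6 occur in both groups, and their deviations correlated with r = 0.017 and 0, against -0.048 to 0.044 for other pairs. The pairs of one number did not stand out. So few pairs cannot decide whether libraries of one number share an animal or culture. Leaving out each library in turn gave 1370 to 2028 changed genes (819 to 1212 higher, 551 to 816 lower), and 1038 of the called genes (54.2%) passed in every such fit. With TMM factors, quantile normalization, edgeR and DESeq2, 1410 called genes (73.7%) passed in all 4. Quantile normalization turned Slc6a6 to -0.11 and Lyz2 to -0.00 on the log2 scale. Lyz2 ranks 6th in every library, so that this value follows from the method and does not bear on its rise. The share of the 100 most abundant genes was 40.8% in normal and 41.5% in high glucose (exact permutation p = 0.229). Without the most abundant gene it differed by 0.7 percentage points (exact permutation p = 0.0286). The causes were not tested. In the simulated data, which held no tilt with expression level, 26.6% of changes of 1 on the log2 scale were recovered below 100 normalized counts. The effect of depth was not tested.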
